A study of Mus musculus with 10 samples.

Results

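Transcripts of fatty acid oxidation and ketone body use were examined in fasted mouse muscle with and without Skn-1. The 32 genes cover carnitine transfer, malonyl-CoA control, the mitochondrial and peroxisomal beta-oxidation spirals, acyl-CoA thioesterases and the enzymes that burn ketone bodies. They were taken from a list of named genes, and every probe set that the array annotation gives to 1 of them alone was used. This gave 57 probe sets for 31 genes, out of 45037 probe sets for 18193 genes on the array. Cpt1b, the carnitine palmitoyltransferase of muscle, was measured just by a probe set that it shares with Chkb and Gm44502, so it is not analysed here. Further probe sets shared by Acot1 with Acot2 and by Acaa1a with Acaa1b were left out for the same reason.

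Male Skn-1/Pou2f3-deficient mice were compared with wild-type males, with 5 arrays of each. Skn-1, now named Pou2f3, is a transcription factor of the POU family that taste and tuft cells need. All mice were 12 to 16 weeks old, ate chow and were fasted for 18 h before the gastrocnemius, a calf muscle, was taken. The knockout was made on a mixed 129 and C57BL/6J background and then crossed to C57BL/6J for over 10 generations, and the labels describe no tissue-limited deletion. RNA was hybridised to Affymetrix Mouse Genome 430 2.0 arrays, 1 sample to an array, and the labels call the samples biological replicates.

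Fatty acids enter mitochondria as carnitine esters, and malonyl-CoA blocks that entry by inhibiting carnitine palmitoyltransferase 1. Inside, each turn of beta-oxidation removes an acetyl unit through dehydrogenation, hydration, a second dehydrogenation and thiolysis, and electrons from the first step reach the respiratory chain through the electron transfer flavoprotein. Fasted muscle draws on this pathway and on ketone bodies made by the liver, and PPAR and oestrogen-related receptors with the coactivator PGC-1 are known to drive its genes.

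Values ran from 4.93 to 13.96 and were read as log2, and all differences are knockout minus wild type on that scale. Array medians lay between 6.23 and 6.24. The muscle marker Ckm, creatine kinase of muscle, stood at 13.74 in knockouts and 13.76 in wild types. Pou2f3 itself had 1 probe set, at 6.47 in both genotypes, with a standard deviation of 0.000289 in knockouts and 0.000244 in wild types. With so little spread it cannot check the genotype labels, whatever its test gives (exact two-sided permutation p = 0.571). Of all probe sets, 86.2% had a standard deviation (SD) over the 10 arrays of at most 0.01. For such a probe set a difference between genotypes cannot be read as a change in RNA, and none is given here. The other kind is called varying below. The pooled list of skin and hair markers stood apart in knockouts 1 and 4 and in wild types 1 and 3, where its mean lay 1.14 to 1.51 above its median over the arrays. The list did not move as 1. The hair keratins Krt25, Krt27 and Krt71 averaged 5.84, 5.54 and 5.94 in knockouts, against 6.98, 6.83 and 6.97 in wild types. Krt1 and Krtdap of the epidermis went the other way, at 6.54 and 7.14 in knockouts against 5.98 and 6.04. Lymphocyte markers did so in knockout 5 (1.90) and wild type 3 (1.93). Differences that turned or moved widely without these 5 arrays are given both ways.

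No gene of fatty acid oxidation or ketone use passed the test between genotypes. Of all 45037 probe sets 0.191% had a limma adjusted p under 0.05, and of the 6209 varying ones 0.966% did. Of the 57 probe sets of these genes, 0 did. At an unadjusted limma p under 0.05 there was 1, the brighter probe set of Bdh1, lower in knockouts, where 6.62% of all probe sets and 9.92% of the 6209 varying ones reached that level, 2.48% of the varying ones with a lower mean in knockouts. No varying member had groups that did not overlap, where 3.37% of all varying probe sets had every knockout above every wild type and 0.596% the reverse. With 1 probe set per gene, the one with the highest mean, 0 of the 31 genes passed, against 0.0275% of all genes. For the 10 genes with no varying probe set and for Acat1 that probe set hardly varied, so for them this test cannot be read. Among the 28 varying probe sets 17 had a higher and 11 a lower mean in knockouts, with a median difference of 0.02. Over all varying probe sets 49.2% were higher, with a median of −0.0021. The 95% interval of the difference spanned 0 for 27 of the 28. Over all arrays it also lay within a fold of 1.5 either way for 27, the exception being Ehhadh. For Ehhadh a knockout level as low as 0.65 times that of wild type was inside the interval. No interval is given for the fit without arrays in which skin or lymphocyte markers stood apart, so this bound holds for all arrays only. In that fit Acot1 was at −0.52 ± 0.14 SE and Ehhadh at −0.41 ± 0.22 SE, with 4 of 28 higher. The intervals over all arrays hold for the deposited values and say nothing on the probe sets that hardly varied. In whole muscle, fewer cells of a type and less RNA per cell cannot be told apart.

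The count of higher means depended on which arrays entered. Without knockout 5 it was 11 of 28, and without the 5 arrays in which skin or lymphocyte markers stood apart, leaving 2 knockouts and 3 wild types, it was 4 of 28 with a median difference of −0.06. Of the 17 probe sets with a higher mean, 13 turned to a lower one in that fit, and 0 of the 11 others turned. No member passed in either fit, so neither direction is more than a description of these arrays.

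**Figure D1:**
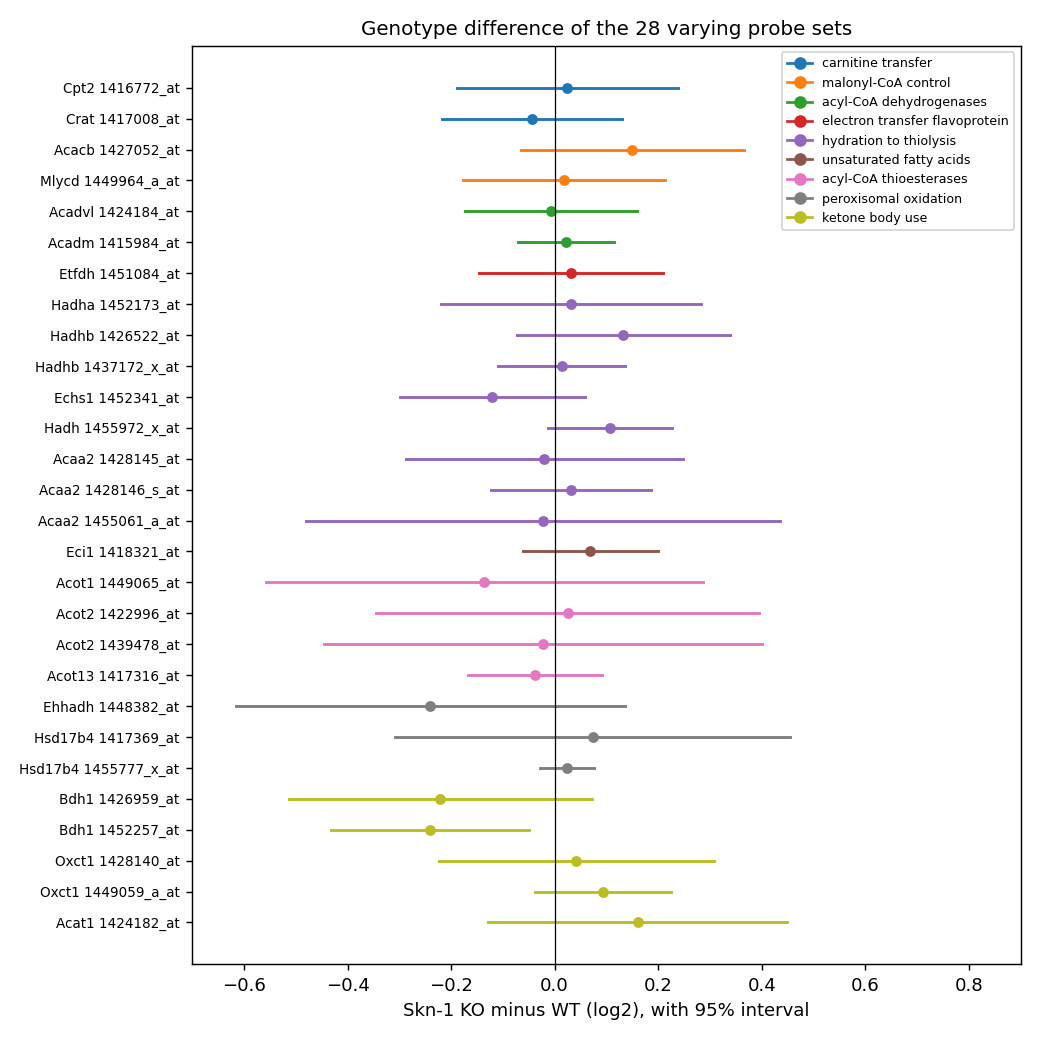
Difference between Skn-1 knockout and wild-type muscle (log2, 5 arrays each) for the 28 varying probe sets, ordered by step of the pathway, with points for the difference and lines for the 95% interval from limma. All intervals span 0 except that of the brighter Bdh1 probe set, which lies between −0.43 and −0.05.

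Many of the probe sets carried no readable variation. Of the 57, 28 varied (49.1%), against 13.8% of all probe sets, but the pathway is brightly expressed in muscle. Among probe sets with a mean above 9, 19 of 30 of the pathway varied (63.3%) and 75.4% of all did. At a mean of 9 or less the shares were 33.3% for the pathway and 10.0% for all. The 29 others had SDs from 7.57e-05 to 0.00465. Nearest to the limit from below were both probe sets of Decr1 (SD 0.00465 and 0.00187), and from above a probe set of Hsd17b4 (SD 0.0371) and that of Acadm (SD 0.0633), so no member lay close to it.

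The 10 genes with no varying probe set came from most steps. They were Slc22a5, the plasma membrane carnitine transporter, Cpt1a, the liver form of carnitine palmitoyltransferase 1, and Slc25a20, the acylcarnitine carrier of the inner membrane. Acadl and Acads, the long- and short-chain acyl-CoA dehydrogenases, and Etfa and Etfb, both subunits of the electron transfer flavoprotein, were others. The rest were Eci2, an enoyl-CoA isomerase, Decr1, the 2,4-dienoyl-CoA reductase, and Acaa1a, the peroxisomal thiolase. Low signal was not common to them. Acadl stood at 11.38, Etfa at 10.58, Etfb at 10.35, Slc25a20 at 9.89 and Eci2 at 9.82 in their brightest probe sets, all well above the array medians. Cpt1a at 7.51 and Acaa1a at 7.28 were nearer to them. Genes could also be split, as Acat1 was, with 1 varying probe set (mean 8.63) beside others at 10.27 and 9.62 that hardly varied.

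**Figure D2:**
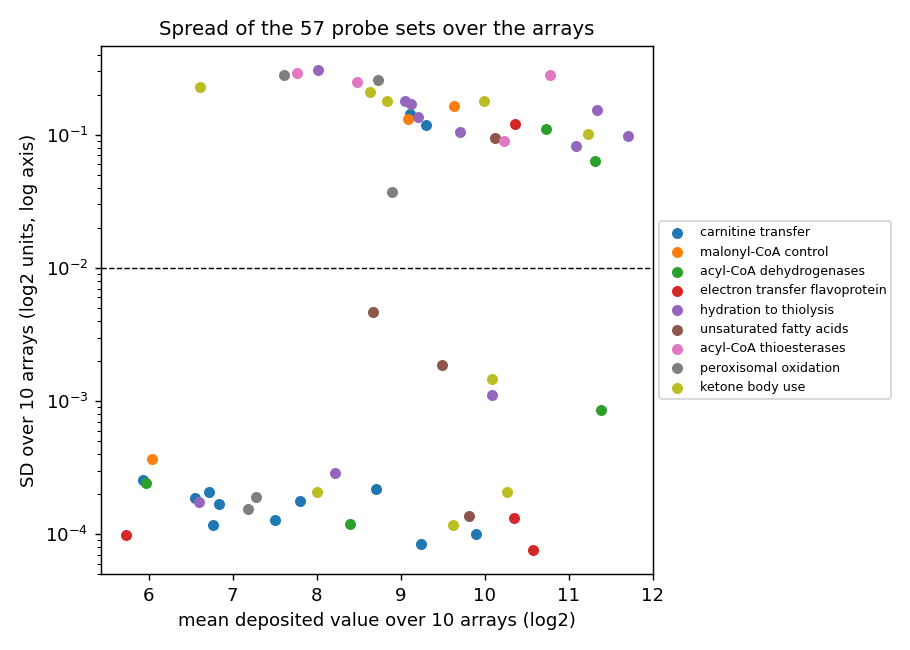
SD over the 10 arrays (log axis) against the mean deposited value (log2) for the 57 probe sets, coloured by step, with a dashed line at an SD of 0.01. The 28 varying probe sets lie at 0.0371 and above and the 29 others at 0.00465 and below, and both kinds are found among the bright ones.

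Carnitine transfer was represented by Cpt2 and Crat. Cpt2 turns acylcarnitine back into acyl-CoA inside the mitochondrion, and Crat, carnitine acetyltransferase, exports acetyl units as acetylcarnitine. Crat stood at 9.43, 9.34, 9.21, 9.30 and 9.13 in knockouts 1 to 5, against 9.52, 9.38, 9.17, 9.27 and 9.29 in wild types 1 to 5. Its groups overlapped throughout, with array 1 the highest of each (difference −0.04 ± 0.08 SE, limma adjusted p = 0.987). Cpt2 averaged 9.13 ± 0.192 in knockouts and 9.10 ± 0.0938 in wild types (SD, n = 5 each; limma adjusted p = 0.999), and without the 5 arrays named above its difference turned from 0.02 to −0.05. Both enzymes also had probe sets that hardly varied.

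Both genes of malonyl-CoA control had higher means in knockouts over all arrays, and neither did without the 5 arrays named above. Acacb, the mitochondrial acetyl-CoA carboxylase that makes the malonyl-CoA which restrains fat entry, had 9.63, 9.66, 9.68, 9.83 and 9.78 in knockouts, against 9.33, 9.81, 9.45, 9.72 and 9.52 in wild types. The wild types spread widely and enclosed every knockout value but that of knockout 4 (difference 0.15 ± 0.09 SE, limma adjusted p = 0.903). Without the 5 arrays the difference was −0.02. Mlycd, malonyl-CoA decarboxylase, which removes malonyl-CoA, averaged 9.09 ± 0.112 in knockouts and 9.07 ± 0.160 in wild types (SD, n = 5 each; limma adjusted p = 1). Its difference was 0.02 over all arrays and −0.06 without the 5.

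The acyl-CoA dehydrogenases open each turn of the spiral. Acadm, the medium-chain enzyme, was among the steadiest, with 11.34, 11.23, 11.31, 11.44 and 11.30 in knockouts, against 11.33, 11.29, 11.24, 11.37 and 11.25 in wild types. Its interval ran from −0.07 to 0.12, a fold of 0.95 to 1.08 (limma adjusted p = 0.987), and without the 5 arrays the difference was −0.04. Acadvl, the very-long-chain enzyme of the inner membrane, averaged 10.73 ± 0.0990 in knockouts and 10.73 ± 0.134 in wild types (SD, n = 5 each; limma adjusted p = 1), with a difference of −0.17 without the 5 arrays (limma adjusted p = 0.872).

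Etfdh, which hands electrons of the flavoprotein to ubiquinone, had 10.34, 10.31, 10.32, 10.40 and 10.52 in knockouts, against 10.27, 10.54, 10.28, 10.47 and 10.17 in wild types. Knockout 5 and wild types 2 and 4 were high, and wild type 5 was the lowest of all (difference 0.03 ± 0.08 SE, limma adjusted p = 0.993). Without the 5 arrays Etfdh was at −0.08. The same arrays return in the next step.

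The later steps of the spiral held the most varying probe sets, 8 of 11. Hadha and Hadhb encode the 2 subunits of the mitochondrial trifunctional protein, which carries out hydration, dehydrogenation and thiolysis of long chains. Hadha stood at 9.04, 9.04, 9.11, 9.22 and 9.28 in knockouts, against 9.11, 9.36, 8.997, 9.28 and 8.79 in wild types. Hadhb, by its brighter probe set, stood at 11.36, 11.24, 11.31, 11.50 and 11.61 in knockouts, against 11.23, 11.44, 11.19, 11.39 and 11.10 in wild types. Both had wild type 5 at the bottom, and both had knockouts 4 and 5 above the other knockouts and wild types 2 and 4 above the other wild types. Neither differed between genotypes beyond that spread (Hadha 0.03 ± 0.11 SE and Hadhb 0.13 ± 0.09 SE, limma adjusted p = 0.998 and 0.919). Without the 5 arrays, which include knockouts 4 and 5, both turned, to −0.06 for Hadha and −0.04 for Hadhb. The second varying probe set of Hadhb differed by 0.01 (limma adjusted p = 0.999) and shared the pattern only in part. Wild type 5 was its lowest array (10.93) and wild type 4 its highest wild type (11.14), but knockout 4 was its lowest knockout (10.98).

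Hadha and Hadhb lie head to head on mouse chromosome 5, with 272 bases between their starts in RefSeq's GRCm38.p6 annotation. Following the same arrays was not particular to this pair. After removal of group means, Etfdh on chromosome 3 had Pearson correlations of 0.95 with Hadha and 0.92 with the brighter Hadhb. Hadha had 0.89 with the brighter Hadhb and 0.30 with the second varying one. A part of the sequence in these values was not tested. The 250 bases before the start of Hadhb are shown at chr5:30155003-30155252 on the plus strand, 5′ to 3′. The 228 bases in capitals also belong to the 250 bases before the start of Hadha on the other strand.
Hadhb upstream: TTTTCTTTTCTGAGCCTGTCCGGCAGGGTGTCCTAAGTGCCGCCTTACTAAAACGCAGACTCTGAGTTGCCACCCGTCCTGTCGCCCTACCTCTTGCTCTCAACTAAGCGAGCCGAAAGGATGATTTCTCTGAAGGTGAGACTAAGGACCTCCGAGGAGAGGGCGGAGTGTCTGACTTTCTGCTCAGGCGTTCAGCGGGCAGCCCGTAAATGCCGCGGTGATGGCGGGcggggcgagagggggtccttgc

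Hadh, the 3-hydroxyacyl-CoA dehydrogenase for shorter chains, came nearest to a difference within the spiral. It had 11.73, 11.72, 11.65, 11.83 and 11.86 in knockouts, against 11.76, 11.64, 11.58, 11.71 and 11.56 in wild types. Knockouts 4 and 5 lay above every wild type and the other 3 among them (difference 0.11 ± 0.05 SE, a fold of 1.08, limma adjusted p = 0.807). Knockouts 4 and 5 are among the arrays with skin or lymphocyte markers, and without the 5 such arrays the difference was 0.05 (limma adjusted p = 0.955). Echs1, the short-chain enoyl-CoA hydratase, had the lowest difference of this step, with 9.15 ± 0.140 in knockouts and 9.27 ± 0.114 in wild types (SD, n = 5 each; limma adjusted p = 0.913). It differed by −0.20 without the 5 arrays (limma adjusted p = 0.881). Acaa2, the mitochondrial thiolase, had 3 varying probe sets with differences between −0.02 and 0.03, and between −0.17 and −0.05 without the 5 arrays. In the dimmest of these, knockouts ran from 7.54 to 8.51 and wild types from 7.79 to 8.36, a wide spread within each genotype.

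Eci1, an isomerase that lets unsaturated chains enter the spiral, stood at 10.18, 10.13, 10.02, 10.31 and 10.17 in knockouts, against 10.15, 10.19, 10.01, 10.04 and 10.07 in wild types. Knockout 4 alone lay above all wild types (difference 0.07 ± 0.06 SE, limma adjusted p = 0.944), and without the 5 arrays named above the difference was −0.02.

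**Figure D3:**
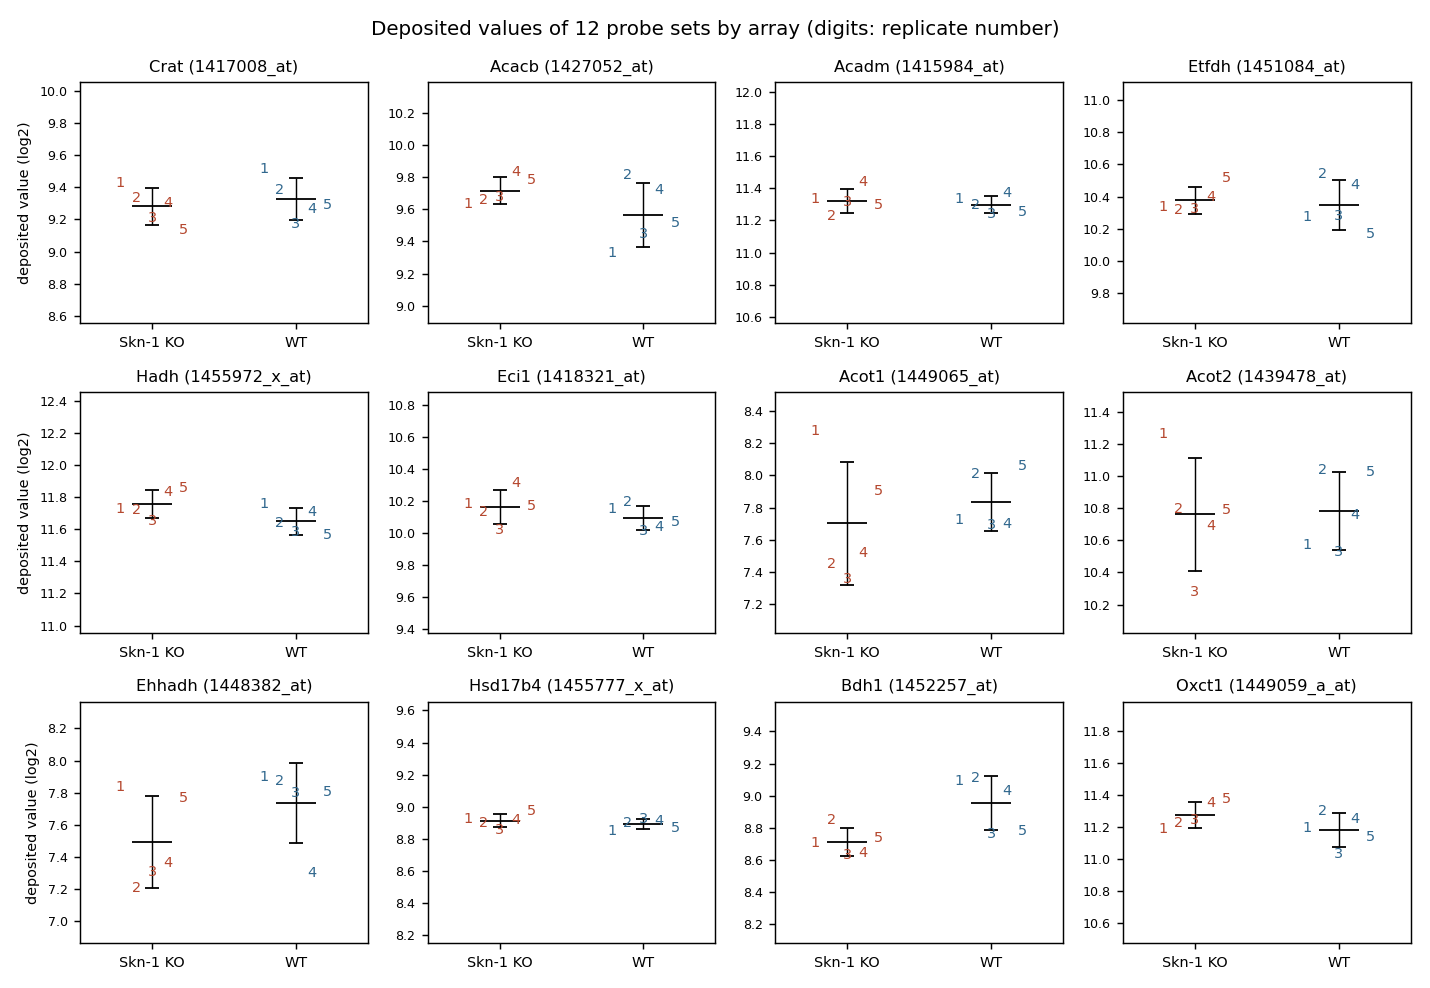
Deposited values (log2) of 12 probe sets in Skn-1 knockout (left) and wild-type (right) arrays, with digits for the replicate number and bars for the mean and SD, all panels spanning the same height. The groups overlap in each panel, and Acot1, Acot2 and Ehhadh spread most.

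Acyl-CoA thioesterases split acyl-CoA into free fatty acid and coenzyme A, and those of Acot1 and Acot2 were among the most variable probe sets, with SDs over the arrays of 0.248 to 0.292. Acot1, the cytosolic enzyme, had 8.28, 7.45, 7.36, 7.52 and 7.90 in knockouts, against 7.72, 8.01, 7.69, 7.70 and 8.06 in wild types. Acot2, the mitochondrial enzyme, had by its brighter probe set 11.26, 10.79, 10.28, 10.69 and 10.79 in knockouts, against 10.57, 11.04, 10.53, 10.76 and 11.03 in wild types. In both, knockout 1 was the highest and knockout 3 the lowest array of all, and the genotypes overlapped (Acot1 −0.14 ± 0.18 SE, Acot2 −0.02 ± 0.19 SE, limma adjusted p = 0.977 and 1). The other probe set of Acot2 had knockout 1 at 8.82 and knockout 3 at 8.10. Acot1 and Acot2 are close relatives on chromosome 12, and signal crossing between their probe sets was not tested. Without the 5 arrays named above, which include knockout 1, Acot1 differed by −0.52 (limma adjusted p = 0.837). Acot2 then differed by −0.40 in its brighter and by −0.38 in its dimmer probe set (limma adjusted p = 0.885 and 0.851), against −0.02 and 0.03 over all arrays. Acot13, a thioesterase bound to mitochondria, averaged 10.21 ± 0.0624 in knockouts and 10.25 ± 0.115 in wild types (SD, n = 5 each; limma adjusted p = 0.981).

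Peroxisomes shorten very long and branched chains with enzymes of their own. Ehhadh, the peroxisomal bifunctional enzyme and a known PPAR-alpha target in liver, stood at 7.84, 7.20, 7.31, 7.36 and 7.76 in knockouts, against 7.90, 7.87, 7.80, 7.30 and 7.81 in wild types. Knockouts 2, 3 and 4 lay with wild type 4 between 7.20 and 7.36, and the other 6 arrays lay between 7.76 and 7.90. The mean difference of −0.24 ± 0.16 SE did not pass (limma adjusted p = 0.921), nor did that of −0.41 without the 5 arrays (limma adjusted p = 0.889). Hsd17b4, the second bifunctional enzyme, had 8.93, 8.90, 8.86, 8.92 and 8.97 in knockouts by its brighter probe set, against 8.85, 8.90, 8.92, 8.91 and 8.87 in wild types. The spread of that probe set was the smallest among the varying ones (difference 0.02 ± 0.02 SE, limma adjusted p = 0.958). By the dimmer probe set Hsd17b4 ran from 8.41 to 9.14 in knockouts and from 8.28 to 8.90 in wild types. The brighter one was at −0.02 and the dimmer one at −0.08 without the 5 arrays, against 0.02 and 0.07 over all.

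Among the genes of ketone body use, Bdh1 had the smallest p of all 57 probe sets. Bdh1, the mitochondrial enzyme that oxidises 3-hydroxybutyrate to acetoacetate, stood at 8.70, 8.85, 8.63, 8.64 and 8.74 in knockouts, against 9.09, 9.11, 8.76, 9.03 and 8.78 in wild types. Wild types 1, 2 and 4 lay above every knockout, while wild types 3 and 5 lay among them. Knockouts were at 0.85 times the wild-type level, with an interval from 0.74 to 0.97 times (difference −0.24 ± 0.08 SE, limma adjusted p = 0.598). The dimmer probe set of Bdh1 differed by −0.22 ± 0.13 SE (limma adjusted p = 0.883). It ran from 6.13 to 6.76 in knockouts and from 6.55 to 6.90 in wild types, not far from the array medians, and it differed by −0.13 without the 5 arrays. Under the 19 alternatives the brighter probe set stayed between −0.29 and −0.20, and its limma adjusted p ran from 0.289 to 1. Filters, variance moderation and replicate blocks cannot move a difference of means, and the other fits reuse the same arrays. The unadjusted limma p of that probe set was 0.0875 with the slow fibre covariate. Without the 5 arrays it was 0.188, at a difference of −0.23.

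Oxct1 and Acat1 complete the use of ketone bodies. Oxct1, the transferase that activates acetoacetate and that the liver lacks, had 11.19, 11.23, 11.25, 11.35 and 11.37 in knockouts by its brightest probe set, against 11.19, 11.30, 11.03, 11.25 and 11.14 in wild types. Knockouts 4 and 5 lay above all wild types (difference 0.09 ± 0.06 SE, limma adjusted p = 0.895). Without the 5 arrays, those among them, this probe set differed by 0.0060, and a dimmer one of Oxct1 by −0.08 against 0.04 over all arrays. Acat1, the thiolase that splits acetoacetyl-CoA, averaged 8.71 ± 0.226 in knockouts and 8.55 ± 0.183 in wild types in its varying probe set (SD, n = 5 each; limma adjusted p = 0.939). Acat1 lies 245 genes after Pou2f3 on chromosome 9 in the RefSeq gene order, and Etfa lies 291 genes after it. The other members on that chromosome, Slc25a20 and Acaa1a, lie 1358 and 1595 genes away.

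The arrays of each genotype differed among themselves. Of the 28 varying probe sets, 21 lay above their own median over the arrays in knockout 5 and 20 in knockout 4, but 15, 8 and 10 in knockouts 1, 2 and 3. In wild types 1 to 5 the counts were 15, 19, 7, 18 and 7. The mean deviation was lowest in knockout 2 (−0.09) and highest in knockout 5 (0.12), and among wild types lowest in wild type 3 (−0.08) and highest in wild type 2 (0.10). Both genotypes thus held arrays at either end. After removal of the group means, the 370 pairs of probe sets from different genes of the pathway had a median Pearson correlation of 0.26 over the 10 arrays, against 0.02 for all pairs of varying probe sets. Pairs share arrays and their normalization, and these values are given as a description. Correlations above 0.8 made up 7.30% of the pathway's pairs and 3.10% of all pairs.

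The probe sets did not follow 1 pattern. Etfdh, Hadha, the brighter Hadhb and Acadvl were high in knockout 5 and wild types 2 and 4 (Etfdh with Hadha 0.95, Hadha with Hadhb 0.89, Acadvl with Hadhb 0.86). Crat and Mlycd (0.88) were instead highest in array 1 of each genotype. Acot1 and Acot2 (0.87), with knockout 1 high and knockout 3 low, were joined in part by Ehhadh (0.76 with Acot1). Cpt2 went with the dimmest Acaa2 probe set (0.97), both lowest in knockouts 1 and 2 and highest in knockout 5.

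**Figure D4:**
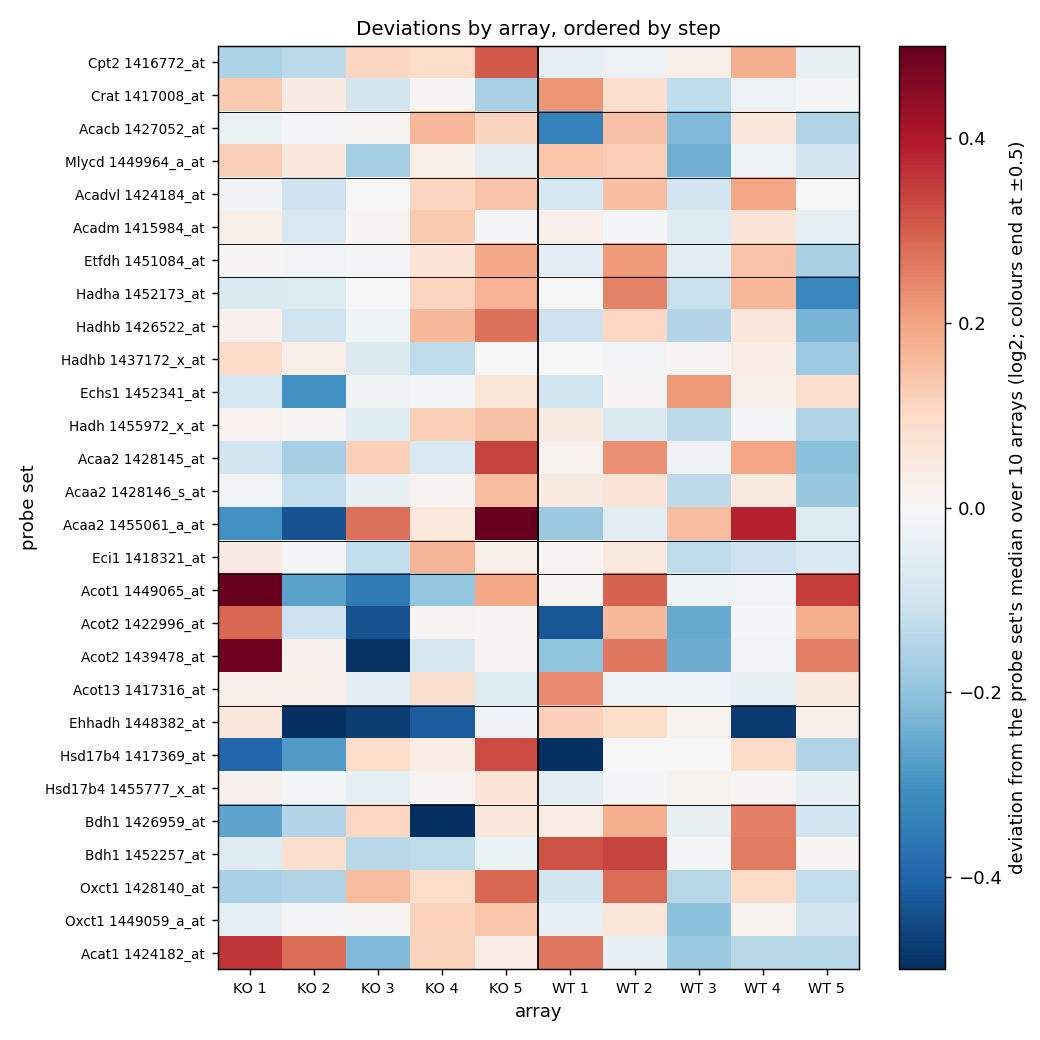
Deviation of each of the 28 varying probe sets from its median over the 10 arrays (log2), with Skn-1 knockout arrays left of the line and wild-type arrays right of it, and thin lines between steps. Knockout 5 holds 21 probe sets above the median and knockout 2 holds 8, while wild type 2 holds 19 and wild types 3 and 5 hold 7 each.

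Slow fibre markers had lower means in knockouts in 13 of 14 varying probe sets, all but that of Myh7, the slow myosin heavy chain. Tnni1, the slow troponin I, averaged 8.40 in knockouts and 8.69 in wild types. All 10 slow fibre markers, which mark fibres rich in mitochondria, were measured, and their mean deviation ran from −0.25 to 0.02 in knockouts and from −0.03 to 0.29 in wild types, highest in wild type 2. With that mean as a covariate 0 of 57 probe sets passed and 19 of 28 were higher in knockouts. Of 8 adipocyte markers 6 were measured, with a range from −0.33 to 0.48 in knockouts and from −0.59 to 0.65 in wild types. The brown adipocyte list, 6 of 6 genes measured, ran from −0.15 to 1.18 in knockouts and from −0.17 to 0.08 in wild types. Of its 7 varying probe sets 5 were of Ppargc1a, which muscle also expresses, and all 5 had higher means in knockouts. Those of Cidea and Cox7a1 had lower means in knockouts. Ucp1, at 5.85 in both genotypes and under the array medians, hardly varied and gives no readable difference. The part of fibre type and fat in the members' values was not tested.

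Since the longer sites that PPAR and oestrogen-related receptors bind hold the 6-base sequence AGGTCA, the 250 bases before each start were searched for it on both strands. A match to these 6 bases alone does not show a binding site. RefSeq windows were found for 25 of the 32 genes, 26 windows in all. Of these 4 held it (15.38%), against 14.02% of all 32851 windows, and no other motif was searched. The matches are shown with up to 17 bases on each side, 5′ to 3′ along the gene's strand (GRCm38.p6), with the match in capitals. TGACCT is the same sequence read on the other strand.
Acadm, chr3:153944870-153944893, minus strand: gTGACCTtcgggctccggtgacac
Echs1, chr7:140116482-140116521, minus strand: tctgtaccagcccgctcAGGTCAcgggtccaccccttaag
Acadvl, chr11:70015493-70015532, minus strand: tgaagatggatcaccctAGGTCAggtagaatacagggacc
Cpt1a, chr19:3323190-3323229, plus strand: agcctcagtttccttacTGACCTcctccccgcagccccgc

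Of these genes, Cpt1a hardly varied. Over all arrays Echs1 was at −0.12 ± 0.08 SE, Acadvl at −0.01 ± 0.07 SE and Acadm at 0.02 ± 0.04 SE. The differences of Acadvl and Acadm were smaller than their SE and give no direction. Without the arrays in which skin or lymphocyte markers stood apart, Echs1 was at −0.20, Acadvl at −0.17 and Acadm at −0.04. None of them passed in either fit. Bdh1, Hadh, Ehhadh, Acot1 and Acot2 had no AGGTCA in these windows.

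Other genes of the pathway were read from a list of 65, of which 60 were measured by 122 probe sets, 51 of them varying. None of the 122 passed (smallest limma adjusted p = 0.0766), and at an unadjusted limma p under 0.05 there were 11 of the varying ones, all higher in knockouts, where 7.44% of all varying probe sets were higher at that level. Of the 11, 9 belonged to regulators of fatty acid oxidation. These 9 were 4 probe sets of Ppargc1a, which encodes PGC-1 alpha, 2 each of Prkaa2 and Prkab2 and 1 of Nrip1. In that list 18 of 20 varying probe sets had a higher mean in knockouts, against 49.2% of all varying probe sets. The 20 came from 10 genes, 5 of them from Ppargc1a alone, and probe sets of 1 gene are not independent. The brightest of Ppargc1a had 7.61, 8.22, 8.53, 9.78 and 8.82 in knockouts, against 7.56, 7.53, 7.84, 7.75 and 7.32 in wild types. Its groups overlapped and it did not pass (difference 0.99 ± 0.36 SE, limma adjusted p = 0.633). The 5 varying probe sets of Ppargc1a differed by 0.60 to 0.99. Knockout 4, an array in which the pooled skin and hair list stood apart, was the highest in each. Prkaa2, the catalytic alpha 2 subunit of AMP-activated kinase, which inactivates Acacb, had 8.93, 8.57, 8.77, 8.69 and 8.62 in knockouts, against 8.38, 8.28, 8.05, 8.29 and 8.11 in wild types. Every knockout lay above every wild type, as in 3.37% of varying probe sets, but the difference of 0.50 ± 0.09 SE did not pass (limma adjusted p = 0.0936). A second probe set of Prkaa2 differed by 0.29 without overlap (limma adjusted p = 0.176) and its brightest probe set by 0.11 with overlap (limma adjusted p = 0.857).

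Abcd2, a peroxisomal transporter of very long-chain acyl-CoA, had the smallest p of these lists. It stood at 7.07, 7.04, 7.24, 7.37 and 7.35 in knockouts, against 6.73, 6.61, 6.85, 6.49 and 6.52 in wild types, without overlap (difference 0.57 ± 0.09 SE, limma adjusted p = 0.0766). Its other varying probe sets differed by 0.07 and 0.02. Plin5, which coats lipid droplets beside mitochondria, led the fasting-induced targets with 9.02 ± 0.249 in knockouts and 8.60 ± 0.152 in wild types (SD, n = 5 each; limma adjusted p = 0.489). The brighter probe set of Plin5 differed by 0.14 (limma adjusted p = 0.949). Pdk4, the kinase that shuts off pyruvate oxidation in fasting, differed by 0.08 (limma adjusted p = 0.965).

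The remaining lists held smaller differences. Among genes of fatty acid uptake and activation 5 of 10 varying probe sets were higher, and the smallest p was that of Acsl3, a long-chain acyl-CoA synthetase, at −0.06 (limma adjusted p = 0.84). Aldh9a1 of carnitine synthesis differed by −0.14 (limma adjusted p = 0.932). Slc16a1, the monocarboxylate carrier that takes up ketone bodies and lactate, differed by 0.15 (limma adjusted p = 0.902).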

How the data were processed

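Gene expression was measured in 10 gastrocnemius samples, 5 Skn-1-deficient and 5 wild type, grouped by the titles. Per the labels' protocols, Trizol and column purification preceded 3′ IVT labelling. Values were deposited already processed by the authors and were read as log2; the sources used here do not state the log base, software or method. Of 45101 rows, 64 controls were left out. Probe sets were named from the platform annotation (34945 with 1 gene, 932 with several, 9160 unnamed), and 34741 matched the RefSeq gene table.

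For the genotype comparison limma 3.58.1 (lmFit, then eBayes without trend; R 4.3.3) was run over all probe sets, with Benjamini-Hochberg adjustment at 0.05, and separately over 18193 genes. Intervals are 95% limma intervals; the number of arrays limits precision. The script was tested on simulated data. Pou2f3 alone was compared by an exact permutation test. Members and lists were chosen with earlier results of these data known.

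Every member is named. Values of all arrays are given for varying probe sets with an unadjusted p under 0.05 and, per step, for those with the smallest p and the highest mean; Hadha, the brighter Hadhb and the other genes of the pathway were added after values were seen, apart from the leading probe set of each list. Alternatives covered normalization, filters, variance moderation, array weights, replicate blocks, arrays left out, a slow fibre covariate and the probe set per gene. The array table carries no counts, so no pseudocount applied. Figures used Python 3.11.15 and matplotlib 3.10.9.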

Additional observations from a re-analysis of the deposited data

Results flagged for a closer look

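For Ehhadh in wild types, wild type 4 lay far from the others, at 7.30 against 7.80 for the nearest, a gap of 0.827 of the whole range where 0.71 is the limit for 5 values. It was the 1 such array among 24 groups of 5, and chance gives about 0.05 of groups. Without wild type 4 the Ehhadh difference was −0.35 (limma adjusted p = 0.695).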

How the results depend on the processing

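The count of 0 members past the threshold held under all 19 alternatives for probe sets and all 21 for genes. The replicate number as a block left it at 0 of 57 (smallest limma adjusted p = 0.58), with 5 calls over all probe sets, against 86 without the block. Each replicate number stands for an array of each genotype, so the block cannot move a difference of means, and the median difference stayed at 0.02 by design. Calls over all probe sets were 31 to 57 without 1 array, 43 after quantile normalization, 21 with the slow fibre covariate, 143 among varying probe sets only, and 0 by limma (2672 at an unadjusted p under 0.05) without the 5 arrays in which skin or lymphocyte markers stood apart. The labels do not tie equal numbers to a shared litter or day, and same-numbered arrays deviated together in 2 of 5 pairs, so the block is an alternative only. The count of higher means was 11 to 20 and the median difference −0.0071 to 0.04 in the fits without 1 array, and 4 and −0.0603 without those 5 arrays. Quantile normalization and centring left the count at 17.

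Without those 5 arrays 13 of the 17 higher differences turned, Hadhb to −0.0372 and Hadha to −0.0643 among them, and both Acot2 probe sets were at −0.404 and −0.378. Acacb was at −0.0172, Acadm at −0.0364, Eci1 at −0.0245, Etfdh at −0.0757 and Hsd17b4 at −0.0161. With the slow fibre covariate Acot1 was at 0.0223 and Acot2 at 0.183. In the fits without 1 array Acadm ran from −0.00617 to 0.0466, Acot2 from −0.147 to 0.0986, Crat from −0.0829 to 0.00386 and Etfdh from −0.0130 to 0.0811. Among the other pathway genes 1 probe set passed with bright probe sets only (Abcd2, limma adjusted p = 0.0477), 2 with varying probe sets only (Abcd2 at 0.00995 and Prkaa2 at 0.0153), where fewer were tested, and 0 to 1 in the fits without 1 array (Prkaa2 without wild type 4, limma adjusted p = 0.0312). The cause of the other changes was not tested.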
